A study of Sus scrofa and Bos taurus with 31 samples.

Results

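Regions of open chromatin found only in lung were defined by setting the lung peak lists of pig and of cattle against every list of the other 7 tissues of the species. ATAC-seq uses a transposase that cuts and tags DNA where nucleosomes leave it exposed, so a peak is a stretch in which tagged fragments pile up above the local background. In pig, 16 lists were used: 2 from lung, 1 for each of the castrated male Yorkshire littermates P348 and P350 (6 months), and 14 from adipose, cerebellum, cerebral cortex, hypothalamus, liver, skeletal muscle and spleen of the same animals. In cattle, 15 lists were used: 2 from lung of the intact male Line 1 Herefords M08 and M22 (14 months), which shared a sire, and 13 from the other tissues, with cerebellum from M22 only. No animal was treated, and nuclei had been cryopreserved from fresh tissue. Peaks of a species that shared 1 bp were merged into regions, a region counted as open in lung when both lung lists had a peak in it, and as lung-only when no other list did. In pig, 4111 of 119629 lung-open regions among 533944 merged regions were lung-only. In cattle, the same rule gave 14556 of 157237 lung-open regions among 504914. The presence of a peak chose these regions, so their openness is described and not tested.

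The alveoli of the lung are lined by flat type 1 cells, across which gas diffuses, and by cuboidal type 2 cells, which make surfactant, the lipid and protein film that keeps alveoli from collapsing. A dense capillary endothelium lies against this epithelium, and fibroblasts, airway epithelium and resident macrophages make up much of the rest. The factors NKX2-1 and FOXA1 act in lung epithelium, FOXF1, TBX5 and WNT2 in lung mesenchyme, and the TEAD factors carry the output of the Hippo pathway, which acts in alveolar type 1 cells. Whole tissue was profiled, so fewer cells of a type and less open chromatin per cell cannot be told apart.

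The sequences of 7 lung-only regions in pig are printed as examples of strong regions and of regions near named genes, chosen with their pattern matches known. The first 4 are among the 10 strongest on assembled chromosomes by the weaker lung library, and the other 3 lie near a mesenchymal, a type 1 and a type 2 gene. Each is the central 300 bases of the region on the plus strand of Sscrofa11.1. The named gene is the protein-coding gene with the nearest start. Capitals mark matches, on either strand, to short letter patterns of transcription factors: AGGAAGT (ETS) and TGANTCA (AP-1) in the first sequence, ACATTCC (TEAD) in the second, and CACTTGA (NKX2) in the remaining 5. Only ETS and AP-1 were marked in the first sequence, and only NKX2, FOX and TEAD in the others. ETS matches in the ARL6 and WNT2 sequences are therefore left in lower case. A match is a run of letters and not a bound site.
LOC102165146, chr7:106271974-106272273: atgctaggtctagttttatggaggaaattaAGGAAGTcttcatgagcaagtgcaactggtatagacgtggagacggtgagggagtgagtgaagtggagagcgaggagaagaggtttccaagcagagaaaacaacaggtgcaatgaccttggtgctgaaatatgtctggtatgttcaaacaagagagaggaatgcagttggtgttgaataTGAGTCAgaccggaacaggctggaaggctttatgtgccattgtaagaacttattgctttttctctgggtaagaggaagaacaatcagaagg
ARL6, chr13:162597296-162597595: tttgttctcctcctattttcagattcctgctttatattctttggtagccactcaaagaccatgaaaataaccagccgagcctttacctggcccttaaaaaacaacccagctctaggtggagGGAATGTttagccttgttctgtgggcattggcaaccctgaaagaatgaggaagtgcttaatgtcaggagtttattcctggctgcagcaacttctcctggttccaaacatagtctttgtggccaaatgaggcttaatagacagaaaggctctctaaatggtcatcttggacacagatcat
FLRT3, chr17:23664732-23665031: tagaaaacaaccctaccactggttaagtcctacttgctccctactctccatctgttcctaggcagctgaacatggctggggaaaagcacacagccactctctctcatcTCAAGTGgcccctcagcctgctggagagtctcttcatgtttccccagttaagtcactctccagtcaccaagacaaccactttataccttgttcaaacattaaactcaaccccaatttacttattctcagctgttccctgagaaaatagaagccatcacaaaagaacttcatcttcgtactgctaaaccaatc
WRN, chr15:53915171-53915470: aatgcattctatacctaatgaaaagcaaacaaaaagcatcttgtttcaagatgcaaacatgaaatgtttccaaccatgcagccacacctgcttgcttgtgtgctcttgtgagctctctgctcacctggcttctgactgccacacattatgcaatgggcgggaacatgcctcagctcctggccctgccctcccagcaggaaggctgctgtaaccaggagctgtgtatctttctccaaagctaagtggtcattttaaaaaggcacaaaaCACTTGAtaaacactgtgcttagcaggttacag
WNT2, chr18:28921686-28921985: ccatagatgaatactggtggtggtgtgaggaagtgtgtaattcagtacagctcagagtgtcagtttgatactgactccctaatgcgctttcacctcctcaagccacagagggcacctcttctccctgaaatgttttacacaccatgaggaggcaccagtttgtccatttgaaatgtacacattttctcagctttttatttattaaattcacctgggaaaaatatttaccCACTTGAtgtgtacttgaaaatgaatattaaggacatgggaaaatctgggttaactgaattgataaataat
CLDN18, chr13:78833044-78833343: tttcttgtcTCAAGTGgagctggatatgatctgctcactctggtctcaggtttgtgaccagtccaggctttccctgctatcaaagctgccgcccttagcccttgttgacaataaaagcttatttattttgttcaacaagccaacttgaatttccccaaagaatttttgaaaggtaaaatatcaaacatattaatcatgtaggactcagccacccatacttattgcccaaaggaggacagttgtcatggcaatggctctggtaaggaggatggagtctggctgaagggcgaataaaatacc
LRRK2, chr5:71821485-71821784: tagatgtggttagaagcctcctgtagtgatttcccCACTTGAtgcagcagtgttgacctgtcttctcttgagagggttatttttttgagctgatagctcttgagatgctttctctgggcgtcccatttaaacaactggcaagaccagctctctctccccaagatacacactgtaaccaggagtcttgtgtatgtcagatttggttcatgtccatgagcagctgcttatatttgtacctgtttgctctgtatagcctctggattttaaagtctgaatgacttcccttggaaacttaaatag

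The first question was whether the lung label fits the 3 markers SFTPB, SFTPC and AGER in pig. The start of SFTPC, which encodes surfactant protein C, lay in a lung-only region. Its fold enrichment over background was 2.73 in P348 and 2.09 in P350. The start of SFTPB, surfactant protein B, lay in chr3:59100660-59102242, where the fold was 3.34 for P348 and 2.84 for P350. That region also had a peak in 5 of the 14 other lists, the strongest at a fold of 2.82 in the cerebral cortex of P350, so it was not lung-only with all listed peaks. When only peaks with a listed q-value under 0.0001 (strong peaks) were kept, the SFTPB start was lung-only. AGER, a receptor of type 1 cells, had 3 lung-open regions within 10 kb, and all 3 had a peak in all 14 other lists, with a higher fold in at least 1 of them. The start of SFTPC was thus lung-only with all listed peaks and that of SFTPB with strong peaks, neither in both, and AGER did not separate lung from the other tissues.

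The lung lists were among the longest of each species. They held 171981 peaks in P348 and 193317 in P350, within a pig range of 99960 to 217308, and 221848 in M08 and 214074 in M22, within a cattle range of 37204 to 221848. The lists give no sequencing depth, and the read numbers that the study gives per library were not used here. Most lung peaks were shared with other tissues. In pig, the share of lung-open regions that were also open in both animals of another tissue ran from 40.8% in skeletal muscle to 51.9% in cerebral cortex. Closure in lung alone was rare: of 16887 pig regions open in all 7 other tissues 3 had no peak in either lung list, and of 11630 such cattle regions 0 had none.

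Lung-only regions made up 3.44% of lung-open regions in pig (Wilson 95% interval 3.33 to 3.54, counting error only). By the same rule the share was 14.7% in cerebellum, 12.4% in skeletal muscle, 7.05% in cerebral cortex, 5.57% in spleen, 5.12% in liver, 2.60% in adipose and 0.579% in hypothalamus, so that lung was sixth of the 8 tissues. In cattle the lung share was 9.26% (9.12 to 9.40), second to cerebellum at 27.9%, which had a single list and so a weaker demand. The place of lung in the order of tissues therefore differed between the species, and this difference was not tested. In both species the other lists differed in length as well.

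**Figure D1:**
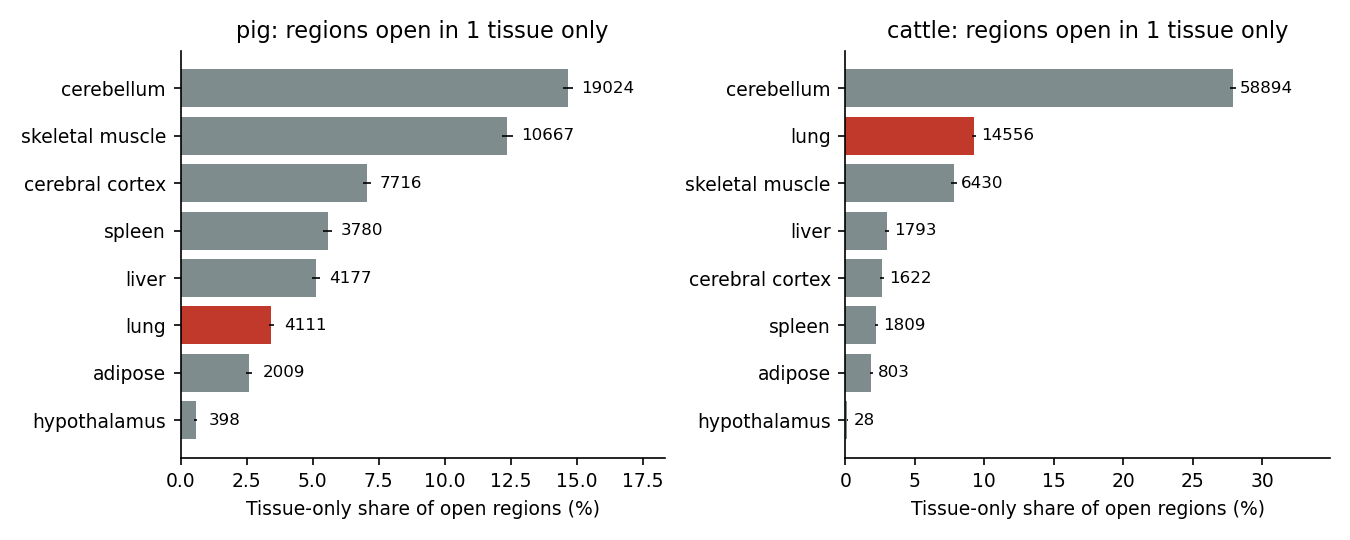
Share of the regions open in each tissue that were open in no other tissue, in percent on the horizontal axis, for pig and cattle, with Wilson 95% intervals as error bars and the number of such regions beside each bar. Lung stands at 3.44% in pig and at 9.26% in cattle, where cerebellum has a single list.

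Lung-only regions were narrower than shared lung-open regions, with folds near theirs. The median width of lung-only regions was 482 bp in pig and 483 bp in cattle, against 1586 bp and 1364 bp for the lung-open regions shared with another tissue. A shared region joins peaks of more lists, so the merging rule itself favours wider shared regions. Single lung peaks had a median width of 537 bp in P348, 600 bp in P350, 583 bp in M08 and 560 bp in M22. The fold of the weaker lung library had a median of 2.70 in pig and 2.87 in cattle, against 2.74 and 2.77 for those shared regions. Among lung-only regions, the fold of the weaker lung library reached 4 or more in 287 pig regions (6.98%) and in 2428 cattle regions (16.7%). Regions just outside the rule, with a peak in exactly 1 other list, numbered 4477 in pig and 12917 in cattle. Their median weaker fold was 2.56 in pig and 2.62 in cattle, and their median width was 820 bp and 840 bp. Pig regions open in lung and in all 14 other lists had a median weaker fold of 4.43 and a median width of 1829 bp. Of all pig lung-open regions, 9019 (7.54%) had both lung folds above the fold of every other list, and 4111 of these were the lung-only regions themselves. Among the shared regions, 54 had lung folds more than 2 times that of every other list.

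The second animal gave a measure that the choice in the first had not used. Regions open only in lung within 1 animal were looked up in each list of the other animal, and in all 4 lookups the lung list of the other animal held the largest share of them. Of 21981 regions found in P348, 34.0% had a peak in the lung of P350, against 1.70% to 11.8% in its 7 other tissues. Of 26573 regions found in P350, 29.4% had a peak in the lung of P348, against 4.93% to 14.6% elsewhere. In cattle, 49.5% of 68584 regions found in M08 recurred in the lung of M22, against 2.12% to 27.1% in its other tissues, and 50.1% of 39293 found in M22 recurred in the lung of M08, against 1.42% to 9.10%. A long list holds more of any set of regions. Set against the share of all merged regions with a peak in the same list, the lung lists held 0.977 and 0.947 times that share in pig and 1.21 and 1.18 times in cattle. The other tissues held 0.0940 to 0.492 times in pig and 0.102 to 0.725 times in cattle. The choice asked for no peak in those tissues of the first animal, and in pig the lung ratios are close to that of any merged region. Of all regions with a lung peak in the first animal, the lung list of the other held 72.2% and 64.4% in pig and 73.2% and 75.9% in cattle.

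**Figure D2:**
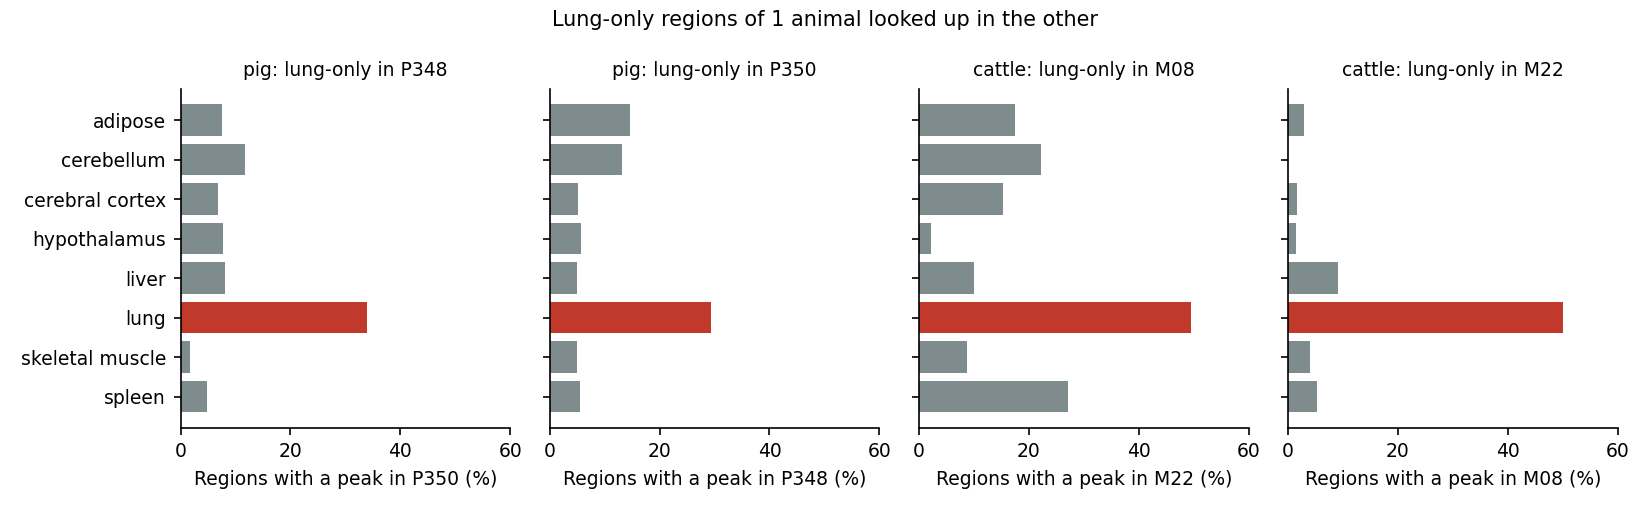
Bars give the percent, on the horizontal axis, of regions open only in lung within 1 animal that had a peak in each tissue of the other animal, 1 panel for each direction (M08 has no cerebellum). The lung bars reach 34.0%, 29.4%, 49.5% and 50.1%, beyond all other tissues in each panel.

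The strongest lung-only regions lay mostly far from gene starts. Regions on assembled chromosomes are ranked here. A region on an unplaced scaffold, with KCNT2 as the nearest start and a weaker fold of 9.06, would stand between the first and the second. The region with the highest weaker fold in pig was chr7:106271923-106272325, whose fold was 12.1 in both animals. It was intergenic, and the nearest protein-coding start, that of LOC102165146, was 560203 bp away. The second was chr5:54212945-54213426, with fold values of 8.57 (P348) and 9.34 (P350), 44283 bp from the start of PLCZ1, a phospholipase C known from sperm. The third, chr4:57725629-57726012, lay in IL7, which encodes the lymphoid cytokine interleukin 7, with folds of 7.81 and 7.98. No region among these 10 was within 2 kb of a protein-coding start.

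The next 3 lay inside genes. The region chr9:31976527-31977114 was in ARHGAP42, with PGR, the progesterone receptor, as the nearest start and folds of 7.73 and 9.28. The region chr13:162597268-162597623 was in EPHA6, an ephrin receptor, with ARL6, a small GTPase of cilia, as the nearest start and folds of 7.11 and 7.17. The region chr14:39752035-39752631 was in TMEM116, with folds of 7.32 and 7.10. The remaining 4 were chr2:22465309-22465882 far from LRRC4C, chr17:23664556-23665208 in MACROD2 with FLRT3 as the nearest start, chr11:13883494-13884125 in FREM2, which encodes an extracellular matrix protein of epithelial basement membranes, and chr15:53915157-53915485 near WRN, a helicase of DNA repair. Their weaker folds ran from 6.91 to 7.03, and the EPHA6, MACROD2 and WRN regions are among the sequences printed above.

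In cattle no annotation was used, so regions are given by position on ARS-UCD1.2 only. The strongest on an assembled chromosome was chr15:42538902-42539311, with folds of 13.5 in M08 and 14.3 in M22. It was followed by chr4:26421220-26421627 at 13.5 and 13.4, chr17:62151289-62151672 at 12.8 and 13.2, chr28:16601133-16602330 at 12.6 and 14.03, and chr10:71328554-71329085 at 12.2 and 13.6. In all 5 the fold of the weaker animal was above the pig maximum of 12.1.

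Lung-only regions were largely scattered in pig and more often grouped in cattle. Regions less than 20 kb apart were joined into chains. In pig, 88.5% of the lung-only regions stood alone and the longest chains held 4 regions. These lay at chr7:49545919-49585560 over ABHD17C, at chr1:18520822-18566157 near STXBP5 and at chr8:114258244-114307702 over PAPSS1, which encodes an enzyme that makes the sulphate donor of the cell. In cattle 65.7% stood alone, and the longest chains held 9 regions, at chr22:53432714-53526229 and chr10:26109897-26184697. Cattle had more lung-only regions, and chains grow with their number. Along the assembled chromosomes, the lung-only share of lung-open regions ran from 2.88% on chromosome 12 to 4.81% on X in pig (82 of 1704), and from 6.89% on chromosome 27 to 16.3% on X in cattle (404 of 2482). X thus had the highest share in both species. All animals were male, and the share by chromosome was not computed for other tissues, so it is not shown to be particular to lung.

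Lung-only regions were mostly distal. In pig, 3.65% lay within 2 kb of the start of a protein-coding transcript (TSS proximal, Wilson 95% interval 3.12 to 4.27), 1.73% near a non-coding start, 47.8% elsewhere in a gene and 46.8% between genes. The median distance to the nearest protein-coding start was 41888.5 bp, and 10.9% overlapped an exon. Among lung-open regions that were not lung-only, 15.3% were TSS proximal. The tissue-only regions of the other tissues were TSS proximal in 3.34% ± 1.89 (SD, n = 7 tissues). Lung differed from this mean by 0.309 percentage points, which was within the spread between tissues (exact two-sided permutation test over 8 tissues, p = 1, where the smallest possible p is 0.125).

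The genes nearest to lung-only regions numbered 3021 of 20648 protein-coding genes, or 14.6%. ZFHX3 and RBFOX1 had the most, 8 each. ZFHX3 encodes a large zinc finger homeodomain protein and RBFOX1 a splicing factor of neurons and muscle. MRPL39 and TMTC2 had 7 each, and SLC9A9, SYNE1, BTBD3, OXR1, AUTS2 and AJAP1 had 6 each. KCNT2, FLRT3, ADGRL2, NCAM2 and NRG1, which encodes neuregulin, had 5 each. RBFOX1 spans 2271 kb and also had 108 lung-open regions and 23 regions open only in cerebral cortex, and MRPL39 had 34 open only in cerebellum. Near ZFHX3 no other tissue had more than 3, the number in skeletal muscle.

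By description, genes of the alveoli, mesenchyme and endothelium had lung-only regions more often than the 14.6% of all genes. The small lists of other tissues did so too. Of 17 type 2 genes 5 had at least 1, of 14 type 1 genes 6, of 18 airway genes 4, of 18 mesenchymal genes 6 and of 20 endothelial genes 7. Among immune and contractile lists, 2 of 12 macrophage genes had one and 0 of 12 lymphocyte genes and 0 of 10 smooth muscle and pericyte genes did. Each list of another tissue also stood above 14.6%. Liver genes (APOB and SERPINC1) and adipocyte genes (ADIPOQ and LIPE) had 2 of 6 each, or 33.3%, the same share as mesenchymal genes. Muscle genes (ACTN3) and neuron genes (SYT1) had 1 of 6 each, or 16.7%. Endothelial, immune and contractile genes are used in all of these tissues.

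For type 2 cells, the genes were SFTPC, SFTPD, NAPSA, LPCAT1 and LRRK2. SFTPD encodes the collectin surfactant protein D, and a region overlapping an exon near its end, chr14:82067742-82068034, had fold values of 3.67 (P348) and 3.45 (P350). A second region, chr14:82070080-82070581, lay within 10 kb of the gene with folds of 2.995 and 2.44. NAPSA, a protease that matures surfactant proteins, held a region in its body, chr6:55223734-55224051, at 2.48 and 2.37. LPCAT1, an enzyme of surfactant lipid synthesis, had one 16418 bp from its start at 2.06 and 2.43. LRRK2, a kinase with high levels in type 2 cells, had one in an intron, chr5:71821449-71821821, at 3.49 and 4.21, and one upstream, chr5:71788874-71789101, at 4.17 and 3.65. All of these folds stood below 5, so the surfactant genes were not the strongest lung-only sites.

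For type 1 cells, the genes were CLDN18, HOPX, RTKN2, PDPN, EMP2 and IGFBP2. CLDN18, a tight junction claudin, had a region in the gene, chr13:78811165-78812967, at folds of 2.38 and 2.45. It also had one 26849 bp from its nearest start, chr13:78832727-78833661, at 4.27 and 4.03. HOPX, a homeodomain protein used as a type 1 marker, had 2 regions in its body, with weaker folds of 2.71 and 2.92. RTKN2 had 2, with weaker folds of 3.21 and 3.81. PDPN, which encodes podoplanin, IGFBP2 and EMP2 had 1 each, with weaker folds of 2.27, 2.48 and 2.57. For airway epithelium, DNAH9, a dynein of cilia, had 2 regions, and FOXJ1, the main regulator of motile cilia, GRHL2, an epithelial factor, and TP63, a basal cell factor, had 1 each, with weaker folds from 2.22 to 2.95.

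The strongest lung-only region near any listed gene was at WNT2, a ligand needed for lung formation. It was chr18:28921490-28922181, 23644 bp from the WNT2 start, with fold values of 6.70 (P348) and 6.40 (P350), and it ranked 17th of the 4111 regions. TBX3 had 4 regions, all intergenic, TBX5 had 2, WNT5A had 2, and FOXF1 and PTCH1, the Hedgehog receptor, had 1 each, with weaker folds from 2.16 to 3.14. In endothelium, CALCRL, a receptor subunit for adrenomedullin, had a region at chr15:92109187-92109480 with folds of 4.98 and 4.38. KDR, the main VEGF receptor, CDH5, the cadherin of endothelial junctions, and EPAS1, a hypoxia-inducible factor, had 2 each. FLT1, VWF and SOX17 had 1 each. Only the WNT2, CALCRL and CLDN18 regions reached a weaker fold of 4 among the listed genes. Among macrophage genes, PPARG, which alveolar macrophages and adipocytes use, had 1 region at chr13:68417283-68417742 with folds of 3.50 and 3.81.

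Because tissues differ in the number of tissue-only regions, the regions nearest to each list were also counted per 1000 tissue-only regions. Lung was first of 8 tissues for type 2 genes (1.46, next cerebellum at 0.736), type 1 genes (2.19, next spleen at 1.32), mesenchymal genes (2.68, next hypothalamus at 2.51 with 1 region) and endothelial genes (2.43, next cerebral cortex at 1.43). These rates rested on 6, 9, 11 and 10 lung-only regions. For airway genes lung was the third at 1.22, and for macrophage genes the third at 0.973. The lists of other tissues pointed to their own tissue: liver genes were highest in liver, muscle genes in skeletal muscle, neuron genes in cerebral cortex, adipocyte genes in adipose and lymphocyte genes in spleen. With peaks of a listed q-value under 0.0001 the lung rates were 2.82 for type 2 genes and 3.76 for each of the type 1, mesenchymal and endothelial lists, and lung was first for these 4 lists. For type 2 genes, however, spleen-only regions were nearest to 6 of the 17 genes and lung-only regions to 5. Skeletal muscle, with 23205 strong tissue-only regions against 2129 in lung, reached 7 of 14 type 1 genes (lung 4). It also reached 10 of 18 mesenchymal genes (lung 7) and 11 of 20 endothelial genes (lung 5). With all listed peaks cerebellum reached 10 mesenchymal genes (lung 6) and skeletal muscle 8 endothelial genes (lung 7). By rate with strong peaks, lung was the fifth for airway genes and the sixth for macrophage genes, at 0.470 each. Adipocyte genes were then highest in liver (0.530) and neuron genes in cerebellum (1.89).

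**Figure D3:**
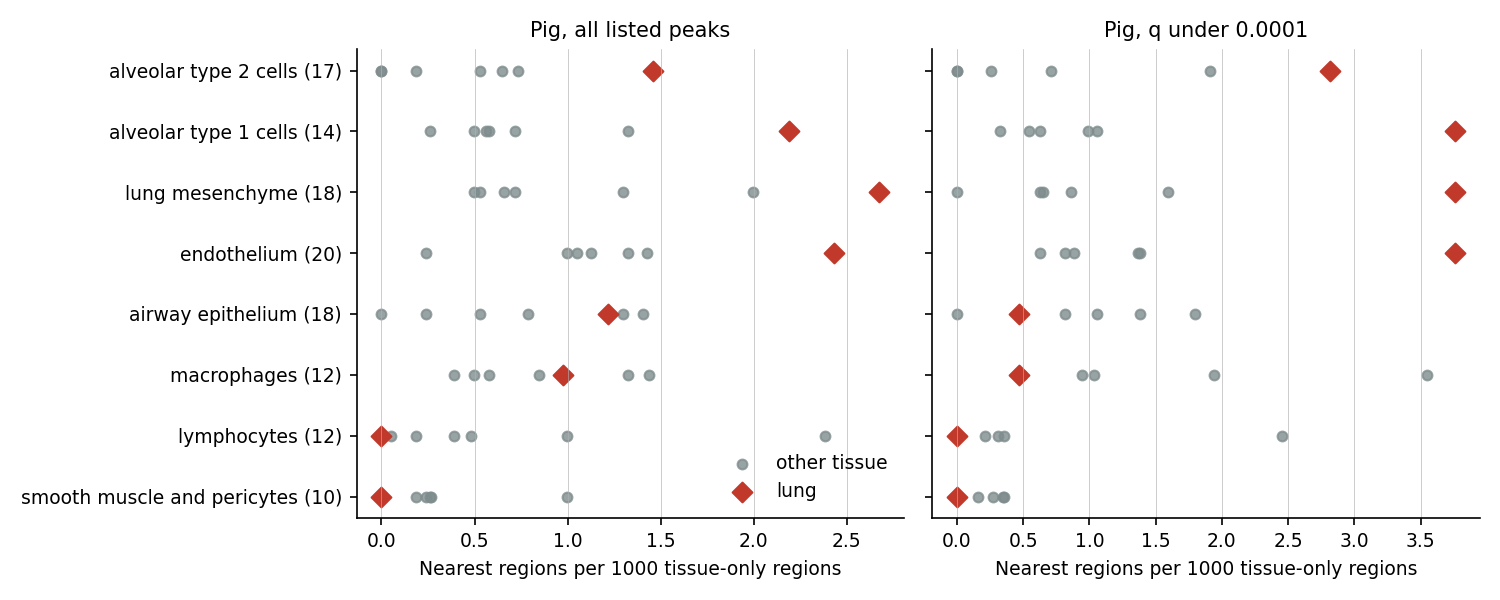
Tissue-only regions nearest to the genes of each list per 1000 tissue-only regions of the tissue, with lung as red diamonds and the other pig tissues with at least 1000 such regions as grey points, for all listed peaks (left) and q under 0.0001 (right), and the number of genes in brackets. With all peaks lung stands at 1.46 for type 2, 2.19 for type 1, 2.68 for mesenchymal and 2.43 for endothelial genes, above the other tissues drawn, and at 0 for lymphocyte and smooth muscle genes.

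The next question was whether whole genes were more open in lung. For each pig gene, the bases covered by peaks in the gene and 10 kb on either side were taken relative to all covered bases of the library and given per Mb of peaks, a level of peak cover. With all listed peaks, 2 of 19618 tested genes were higher in lung than in the mean of the 7 other tissues and 0 were lower (limma, Benjamini-Hochberg adjusted p under 0.05; 0.0102% and 0%), while 2653 had an unadjusted p under 0.05. With only peaks of a listed q-value under 0.0001, 558 of 18317 genes (3.05%) were higher and 112 (0.611%) lower. A gene was tested when at least 2 libraries had a peak, and 94 genes, 30 of the 558 among them, reached this only through the lung libraries. The filter thus chose these genes by a lung peak, which favours a higher lung value, and their p-values are not given. The call thus depended on whether weak peaks were counted, and both values are given below. With strong peaks a gene could stand at 0 in both animals of a tissue. Such pairs show no spread between animals and lower the spread that limma estimates. The p-values with strong peaks can therefore be too small. With all listed peaks both lung libraries stood above all 14 others for 84 genes (0.428%) and below all 14 for 63 (0.321%), and lung was first of the 8 tissues for 759 (3.87%).

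The 2 genes called with all peaks were G6PC2, a glucose-6-phosphatase known from pancreatic islets, and LOC100737030 on chromosome 12. G6PC2 had a peak cover of 20.5 in the lung of P348 and 25.0 in that of P350, against a lowest of 0, a median of 2.49 and a highest of 23.5 in the other 14 libraries. Its lung libraries thus overlapped the others, since the highest hypothalamus library stood above the lung of P348. The log2 difference was 1.19 ± 0.16 (SE, limma adjusted p = 0.0359). LOC100737030 had 33.8 and 34.3 against 1.36 to 20.7, with no overlap, and its log2 difference was 1.19 ± 0.16 (limma adjusted p = 0.0359). Neither call was kept with strong peaks only, where G6PC2 had a difference of 0.79 (limma adjusted p = 0.0712) and LOC100737030 one of -0.09 (limma adjusted p = 0.851). Neither call was kept either when the animal was added as a replicate block (limma adjusted p = 0.0712 for both) or when 1 lung library was left out, with adjusted p from 0.438 to 0.539.

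Of the 17 type 2 genes, all tested with strong peaks, 5 were higher in lung, or 29.4% beside the 3.05% of all genes: SFTPB, SFTPA1, SLC34A2, LRRK2 and FOXA1. The share of 29.4% counts SFTPB, which was tested only through lung. Of all genes not tested only through lung, 528 of 18223 (2.90%) were higher. SFTPB had 37.6 in the lung of P348 and 33.7 in that of P350 with all peaks, and 2.74, 13.7 and 34.0 as lowest, median and highest of the other libraries. Lung was first of the 8 tissues, with a slight overlap with adipose of P348. The log2 difference was 1.00 ± 0.31 (limma adjusted p = 0.235). With strong peaks SFTPB had 35.9 and 41.6 in lung and was listed at 0 in all 14 other libraries, so it was tested only through lung and its call is no support.

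SFTPC was not called. Its peak cover was 34.3 in P348 and 18.9 in P350, against 0 to 59.6 elsewhere with a median of 17.03, and lung was the third of the 8 tissues. With strong peaks it was 0 and 35.8, with a log2 difference of -0.74 (limma adjusted p = 0.643). A wider lung-open region over the end of the gene, chr14:6442528-6447427, had a peak in 13 of the 14 other lists. AGER had 27.7 and 21.0 against 11.4 to 45.3, with lung the fourth of the tissues, and was not called with either set of peaks.

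The other 4 called type 2 genes had strong peaks outside lung as well. SFTPA1, surfactant protein A, had 41.3 and 60.5 against 0 to 61.0 with a median of 9.78, where liver of P350 stood highest (limma adjusted p = 0.0482). SLC34A2, the phosphate carrier of type 2 cells, had 54.7 and 75.7 against a median of 0 and a highest of 60.3 (limma adjusted p = 0.00572). FOXA1, a forkhead factor of lung and liver epithelium, had 74.1 and 92.0 against a median of 0 and a highest of 189.7 in liver of P350 (limma adjusted p = 0.00102). With all peaks SLC34A2 and FOXA1 had log2 differences of -0.06 and -0.21, so their direction changed with the peak limit. SFTPD, ABCA3, the lipid carrier of surfactant-storing organelles, and NAPSA were not called with strong peaks (limma adjusted p = 0.149, 0.549 and 0.887). LAMP3, a membrane protein of surfactant-storing organelles, was second to spleen and not called, with 38.5 and 31.7 against 0 to 71.2.

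Of the 14 type 1 genes 3 (21.4%) were higher with strong peaks: CLDN18, GPRC5A and EMP2. CLDN18 had 53.0 and 34.1 with all peaks, against 0 to 52.0 elsewhere with a median of 20.3 (log2 difference 0.93 ± 0.35, limma adjusted p = 0.292). With strong peaks it had 57.4 in P348 and 50.7 in P350 and was listed at 0 in all 14 others. CLDN18 too was thus tested only through lung, and the share of 21.4% counts it. SFTPB and CLDN18 thus had no strong peak within 10 kb outside lung. The tissues were unequal in strong peaks. Genes nearest to a strong region open in both animals ran from 8445 in adipose to 15219 in liver, with 9474 in cerebellum and 14002 in lung. The part of this in the missing strong peaks was not tested.

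KRT8 and KRT19, which encode keratins of simple epithelia, were in none of the 12 marker lists. They were named after their values were seen, among the smallest adjusted p-values with strong peaks. Their values are therefore a description and no independent support. With strong peaks KRT8 had 116 in P348 and 104 in P350, against a median of 0 and a highest of 70.0 in liver of P350, with no overlap (log2 difference 2.78, limma adjusted p = 1.79e-05). For KRT8 both animals of adipose, cerebellum, skeletal muscle and spleen stood at 0, which lowers this p-value. Its SE was 0.15, against 0.29 with all peaks. KRT19 had 49.0 and 56.1 against a median of 0 and a highest of 4.24 in skeletal muscle of P350, the single other library with a strong peak, and so was tested only through lung. With all peaks both ranked first, with log2 differences of 1.13 (limma adjusted p = 0.204) and 1.03 (limma adjusted p = 0.292). KRT15, a keratin of basal cells, has a window that overlaps that of KRT19 and held the same strong peaks in lung, so the pair is not independent. Of the 16 airway genes tested with strong peaks 3 (18.8%) were higher, KRT15, ELF3 and GRHL2. KRT15 reached the test only through lung and is counted in this share.

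Few mesenchymal and endothelial genes were called, in shares near the 3.05% of all genes. Of 18 mesenchymal genes 1 was higher with strong peaks, FOXF1, which had 49.3 and 34.8 against 0 to 67.4 with a median of 7.53 (limma adjusted p = 0.0291). TBX5 had 49.8 and 21.3 against 0 to 50.0 and was not called (limma adjusted p = 0.166). Of 20 endothelial genes 1 was higher, EMCN, a sialomucin of capillaries. CA4, carbonic anhydrase 4 of the lung capillary surface, had 27.1 and 36.4 with all peaks against 2.89 to 33.0 and was not called (limma adjusted p = 0.204). Among other lists 1 of 6 neuron genes (NEUROD6, 16.7%) and 1 of 6 adipocyte genes (PLIN1, 16.7%) were higher. Of 12 lymphocyte genes 1 (CD79B) was lower, and no smooth muscle, macrophage, liver or muscle gene was called. PAX5, a B cell factor, had 190.7 and 232.6 with all peaks, first of the tissues, against 28.1 to 211.5, and 43.3 and 78.8 with strong peaks, where spleen of P348 stood highest at 263.1.

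Over whole lists the differences were small with all listed peaks, and larger with strong peaks for alveolar, airway, mesenchymal and endothelial genes but not for these alone. With all listed peaks the median log2 difference was 0.24 over type 2 genes, 0.06 over type 1, 0.28 over airway, 0.14 over mesenchymal and 0.26 over endothelial genes, beside -0.05 over all genes. A difference above 0 was found in 13 of 17, 8 of 14, 14 of 18, 11 of 18 and 17 of 20 of these genes, against 44.7% of all tested genes. Macrophage and lymphocyte genes had medians of 0.22 and 0.19, close to the lung lists, as did adipocyte genes at 0.31, with 5 of 6 above 0. Liver and muscle genes had -0.31 and -0.29, and neuron genes -0.00175. With strong peaks the medians were 0.89 for type 2, 0.84 for type 1, 0.60 for airway, 0.60 for mesenchymal and 0.64 for endothelial genes, beside 0.06 over all genes, and 0.02 for lymphocyte genes. Neuron genes had 0.52 and smooth muscle and pericyte genes 0.42, not far below the airway, mesenchymal and endothelial values. Macrophage genes had 0.18, liver genes -0.15, adipocyte genes -0.18 and muscle genes -0.42.

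**Figure D4:**
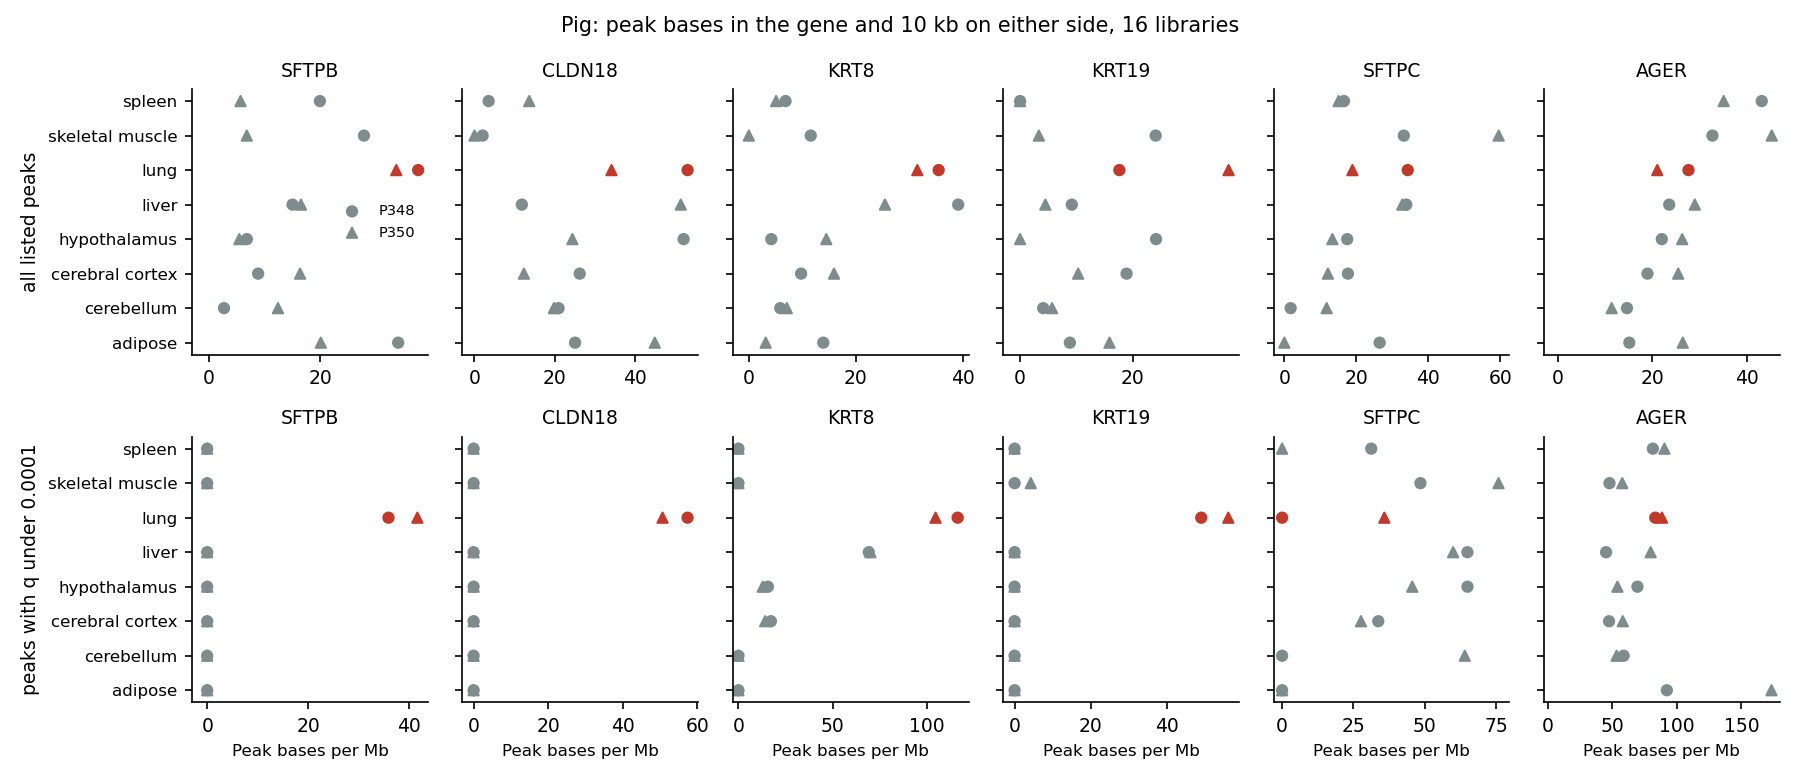
Peak cover of named genes in each of the 16 pig libraries (bases covered by peaks per Mb of peaks, in the gene and 10 kb on either side), with lung in red, the 14 others in grey, circles for P348 and triangles for P350, for all listed peaks (top) and for peaks with a listed q-value under 0.0001 (bottom). With strong peaks SFTPB and CLDN18 are at 0 in all other libraries, while AGER is at 45.2 or more in all of them.

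Lung-only regions held more matches to the NKX2, TEAD and FOX patterns than the merged regions as a whole. Sequence had no part in the choice of regions. The central 300 bp of each region was searched on both strands for 23 patterns, and the 8 sets of tissue-only regions were compared. CACTTGA, the NKX2 pattern, was in 7.27% of the lung-only regions (299 of 4111), in 3.70% of all merged regions and in 3.52% of the lung-open regions that were not lung-only. Lung was first of 8 tissues, with skeletal muscle next at 4.91%. ACATTCC, the TEAD pattern, was also in 7.27%, against 4.05% of all merged regions, with lung first and cerebral cortex next at 5.03%. TGTTTAC, the forkhead (FOX) pattern, was in 7.66%, against 3.70% of all merged regions, second to liver at 9.70%.

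Most other patterns were highest in another tissue. Some were also more frequent in lung-only regions than in all merged regions: ETS 1.38 times, AP-1 1.33, GATA 1.45 and CEBP 1.32. ETS (AGGAAGT) was in 9.85% of lung-only regions, second to spleen at 18.4%, and the pattern of the GATA factors, AGATAAG, in 5.16%, second to liver at 6.78%. CEBP (TTGCNNAA) was in 16.8%, second to liver at 24.2%, and AP-1 (TGANTCA) in 14.4%, behind cerebral cortex at 18.8% and skeletal muscle at 14.5%. The T-box pattern (AGGTGTG) was in 7.69%, first but close to adipose at 7.47%. The HNF4 (CAAAGTCCA), RUNX (TGTGGTT) and MEF2 patterns were in 0.414%, 6.49% and 3.33%, near or below the shares of 0.430%, 6.44% and 4.05% over all merged regions, while each was highest in liver, spleen and skeletal muscle in turn. KLF/SP (GGGCGGG) was in 6.64%, first of the tissue-only sets, and in 12.5% of the other lung-open regions. Mean GC was 48.4% in lung-only regions and 53.6% in the other lung-open regions. It was 43.1% to 51.0% in the tissue-only sets of the other tissues, and its part in the pattern shares was not tested. The central 300 bp also covers less of a wide merged region, and the part of width was not tested.

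The spread between animals was read from regions open only in 1 tissue within 1 animal. For NKX2 the lung sets had 5.34% in P348 and 4.43% in P350, and the other 14 sets ran from 3.22% to 4.59%, so P348 lay above all of them and P350 overlapped. For TEAD the lung sets had 5.46% and 4.76% against 3.06% to 4.87%, again with P348 above and P350 within. For FOX they had 5.33% and 4.53% against 2.37% to 7.10%, within the range. With strong peaks the 2129 lung-only regions had NKX2 in 8.22% (next 4.60% in hypothalamus), TEAD in 8.64% (next 4.84% in skeletal muscle) and FOX in 9.25% (next 8.43% in liver), and lung was first for all 3.

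**Figure D5:**
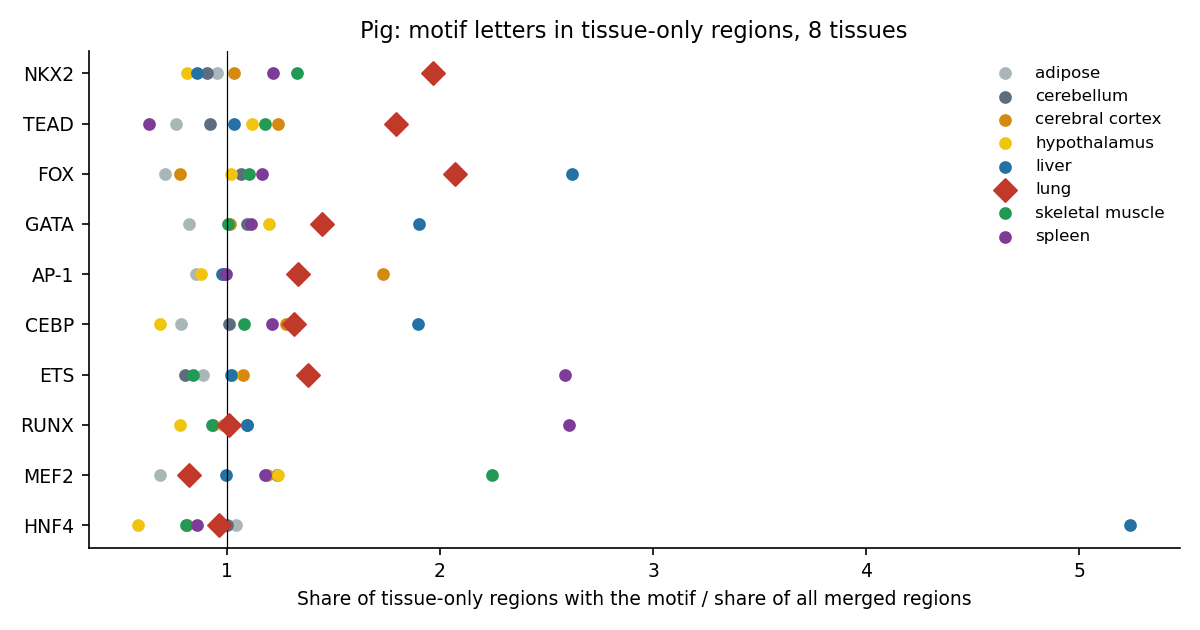
For 10 patterns, the share of the tissue-only regions of each pig tissue that held the pattern, divided by the share over all merged regions (horizontal axis, with a line at 1), lung as red diamonds and the other tissues as coloured points. Lung is highest for NKX2 at 1.97 and TEAD at 1.79, second to liver for FOX at 2.07, and near 1 for RUNX and HNF4.

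Keeping only strong peaks changed which regions were lung-only. Of the 2129 lung-only regions with a listed q-value under 0.0001, 573 (26.9%) overlapped a lung-only region found with all peaks. Their median weaker fold was 3.90, and 4.56% were TSS proximal. Among them were the start of AGR2, chr9:86053579-86053989, with folds of 8.10 and 8.16, which encodes a protein of mucus-making epithelia, and the SFTPB start. Near listed genes they included chr5:71814775-71815866 in LRRK2 (7.56 and 6.52), chr5:59605181-59605628 near GPRC5A (6.02 and 4.28), chr8:120225173-120226318 in EMCN (6.76 and 3.58), chr1:30098270-30099591 near TCF21, a factor of lung mesenchyme (5.15 and 4.92), and the WNT2 region again.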

How the data were processed

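ATAC-seq peak lists of 16 pig and 15 cattle libraries were used, 1 per library and not pooled. According to the methods and the submitters' processing notes, the authors used Trim Galore 0.4.5, BWA mem 0.7.17, SAMtools 1.10, Picard 2.18.17 for duplicates (stated for ChIP-seq reads) and MACS2 broad calls on Sscrofa11.1 and ARS-UCD1.2. A shift of read ends is not given in the sources used here. The deposited score, the fold enrichment ratio over local background, and the −log10 p-value and −log10 q-value are the authors' averages over each broad peak. The stated q-value limit was 0.05, but the deposited lists reach down to a −log10 q-value near 1, and 1.54% to 20.9% of the peaks of a list lie above the limit. A deeper library can list more and weaker peaks. Read numbers per library, which the study gives, were not used here.

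From these lists, peaks of a species sharing 1 bp were merged, and regions were placed in NCBI annotation release 106 of Sscrofa11.1 (20674 protein-coding genes, of which 20648 with a unique symbol were used, and the reference held each of the 270 sequences named in these lists). No cattle annotation was used here. Peak bases per gene were tested as log2(bases per Mb of peaks + 10), for genes with a peak in at least 2 libraries, with limma 3.58.1 in R 4.3.3, 8 tissue means, lung minus the mean of the 7 others, and Benjamini-Hochberg adjustment over all genes. A fold change on that scale understates the change of low genes, and where all other libraries are at 0 it depends on the pseudocount. Counting and figures used Python 3.11.15 (pandas 2.3.3, numpy 2.4.6, scipy 1.17.1, matplotlib 3.10.9). On simulated data for this comparison over 19618 genes, 43 of 100 genes changed by 1 on the log2 scale and 99 of 100 changed by 2 were recovered, with 2 false calls in all.

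Samples were grouped by species and tissue. Same-named samples come from 1 animal, but the main fit and the fit with strong peaks did not use this pairing. The animal was added as a block only in an alternative with all listed peaks. The deviations of same-animal samples correlated from -0.24 to 0.17 over 28 pairs of tissues. The members, gene lists and patterns were chosen with earlier results of these data known. Genes named were SFTPB, SFTPC and AGER, members of 12 marker lists with the largest and smallest lung differences, and the genes nearest to the most lung-only regions. Regions named were the 10 (pig) and 5 (cattle) on assembled chromosomes with the highest fold of the weaker lung library and the longest chains. G6PC2, LOC100737030, KRT8, KRT19, AGR2 and the regions printed for LRRK2, GPRC5A, EMCN and TCF21 with strong peaks were named after their values were seen. Alternatives were other q-value limits, merging of peaks closer than 500 bp, equal list lengths, a looser rule for other tissues, assembled chromosomes only, other windows, pseudocounts and filters, unscaled cover, the animal as a block, a 2-group fit, and leaving out each lung library. Some items are not reported here by name.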

Additional observations from a re-analysis of the deposited data

How the results depend on the processing

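The number of lung-only regions and their share depended most on how an open tissue was defined. With peaks of a q-value under 0.0001 there were 2129 lung-only regions in pig, 6.98% of those open in lung, and in cattle the share was 23.2%. A q-value limit of 0.01 gave shares of 6.41% and 16.1%, and merging of peaks closer than 500 bp gave 2.98% and 8.40%. With lists of equal length the shares were 4.75% in pig and 14.1% in cattle (4344 regions). When another tissue counted as open only with peaks in both animals there were 16758 regions (14.01%) in pig and 39200 (24.9%) in cattle. With a single lung library there were 14533 to 16082 regions (8.66% to 8.77%) in pig and 30833 to 31214 (14.4% to 15.1%) in cattle.

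In pig the TSS proximal share was 1.58% at 500 bp, 4.56% with q under 0.0001 and 2.76% to 3.02% with 1 lung library. The lung difference from the other tissues was negative when both animals were needed (-0.0443) and with 1 lung library (-0.58 to -0.32), with p = 1 in the exact permutation test each time. Nearest genes numbered 1753 with q under 0.0001, 7118 when both animals were needed and 6794 to 7046 with 1 lung library. NKX2, FOX and TEAD shares were 3.70%, 4.45% and 4.14% in the central 150 bp, 8.22%, 9.25% and 8.64% with q under 0.0001, and 4.83% to 5.83%, 4.79% to 5.97% and 5.18% to 5.97% with 1 lung library.

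Calls of genes higher and lower in lung were 12 and 0 with 50 kb around the start, 58 and 5 with 2 kb, 39 and 6 with a pseudocount of 1, 0 and 0 with 50, 6 and 1 without a filter on low values, 784 and 2 without scaling, which moved the median of all genes to 0.33, 558 and 112 with q under 0.0001, and 45 and 6 with lists of equal length. With the animal as a replicate block the calls were 0 and 0 (2506 genes at an unadjusted p under 0.05), with the 2-group fit 0 and 0 (251 such genes), and without 1 lung library 0 and 0 (1075 to 1635), where the lone lung sample is assumed to vary like the other tissues. Over 17 named genes and 12 alternatives, 156 of 204 values kept their direction and side of the threshold, 16 kept their direction and newly passed it, 15 kept their direction and no longer passed, and 17 turned sign. With sign set aside, 18 newly passed and 17 no longer did. Those that turned were SFTPC with q under 0.0001 (-0.74), AGER (0.18 at 2 kb, 0.35 unscaled, 0.30 with q under 0.0001, 0.24 with equal lists, 0.10 without P350, beside -0.18 without P348, which kept its sign), SLC34A2 (0.0258 at 50 kb, 0.35 unscaled, 2.12 with q under 0.0001, 0.36 with equal lists, 0.12 without P348, beside -0.25 without P350, which kept its sign), FOXA1 (0.0240 at 50 kb, 0.20 unscaled, 2.52 with q under 0.0001, 0.47 with equal lists) and LOC100737030 (-0.15 at 2 kb, -0.0907 with q under 0.0001), all on the log2 scale. The cause of these changes was not tested. Weak regions and missing peaks in short lists were not judged by coverage, since the lists give no depth.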
